A study of Mus musculus with 16 samples.

Results

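RNA-seq compared the frontal cortex of adult Upf3b-KO mice (Upf3b-null, without a working Upf3b gene) with that of their Ctrl littermates. The 8 frontal cortex libraries of the series were taken by their labels, 4 of each genotype, out of 16 libraries in all. The sample labels give tissue and genotype, and the results section of the study gives 4 adult mice of each genotype. Strain, sex, age beyond adult, the design of the null allele and whether dissected tissue was pooled were not given in the sources used here, so the p-values measure the spread between these libraries. The comparison asks which RNAs depend on Upf3b in this part of the brain.

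Nonsense-mediated RNA decay (NMD) degrades messenger RNAs on which ribosomes stop translating too early, and also a set of normal messenger RNAs. The exon junction complex, a group of proteins left on the RNA where an intron was removed, marks a stop codon as premature when it still sits well downstream of it. Upf3b links that complex to Upf2 and Upf1, and a downstream exon junction (dEJ) is therefore the best known feature of NMD targets. Genes for splicing factors often carry "poison" exons whose inclusion brings such a stop codon into the frame. In humans, loss of UPF3B causes intellectual disability.

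The stretches below show what a dEJ looks like in 8 transcripts on which the results on decay features turn. Each is the last part of the annotated reading frame, 60 bases 5' to 3' on the transcript with the stop codon in capitals, read from the GRCm39 genome.

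Srsf3-201: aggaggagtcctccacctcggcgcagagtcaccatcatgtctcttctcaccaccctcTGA
Eif4a2-203: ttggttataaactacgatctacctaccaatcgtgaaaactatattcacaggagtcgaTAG
Mobp dEJ transcript: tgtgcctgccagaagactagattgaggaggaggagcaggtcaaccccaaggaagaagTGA
Brd2 dEJ transcript: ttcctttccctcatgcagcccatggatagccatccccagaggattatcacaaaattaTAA
Gabra2 dEJ transcript: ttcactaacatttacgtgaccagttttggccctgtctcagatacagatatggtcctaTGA
Septin5-202: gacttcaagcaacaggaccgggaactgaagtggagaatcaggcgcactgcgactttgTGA
Kbtbd11-202: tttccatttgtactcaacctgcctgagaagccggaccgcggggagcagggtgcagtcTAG
Arc: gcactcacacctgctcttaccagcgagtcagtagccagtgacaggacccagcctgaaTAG

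In Srsf3, a splicing factor of the SR family, the stop codon at chr17:29258459-29258461 (plus strand) lay in an exon that the canonical transcript does not contain, with 3 junctions downstream and a frame of 124 codons against 164. Eif4a2, a translation initiation helicase, had its stop at chr16:22931108-22931110 (plus strand), again in an exon absent from the canonical transcript, with 1 junction downstream. The stop of the Mobp transcript, from the gene for a myelin protein, was at chr9:120002254-120002256 (plus strand) in an exon outside the canonical transcript and left 81 codons of 170. In Brd2, a chromatin reader, the stop at chr17:34335291-34335293 (minus strand) followed 146 codons where the canonical frame has 798. In Gabra2, a subunit of the GABA-A receptor, it stood at chr5:71171910-71171912 (minus strand) after 87 codons where the canonical frame has 451. In Septin5, a cytoskeletal GTPase of synapses, it stood at chr16:18441961-18441963 (minus strand) after 248 codons where the canonical frame has 342. The other 2 differ in kind, because the frame is the full one. Kbtbd11 (chr8:15079302-15079304, plus strand) and Arc (chr15:74543031-74543033, minus strand) end at their normal stop codons, with 1 junction downstream in Kbtbd11-202 and 2 in Arc, where the last junction lies 757 nt past the stop.

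The libraries held 30342874 to 34501210 counts, so that 3 counts, the limit that a count of 0 allows, corresponded to 0.0870 to 0.0989 CPM (counts scaled to the library's total). Such limits cover counting error only. A gene level is the sum over its transcripts. Libraries of the same group lay close to each other, with a biological coefficient of variation of 0.0399 across genes and 0.495 across transcripts, so that isoforms were measured far less precisely than genes. Between 24684 and 24908 genes were detected in the Ctrl libraries and between 26158 and 26268 in the Upf3b-KO libraries. The targeted gene fell, and its main coding transcript went from 13.5 to 14.7 CPM in the Ctrl libraries to between 0.229 and 0.857 CPM in the Upf3b-KO libraries. Of the 38 tested genes within 10 Mb of Upf3b (chrX:36355174-36374019, minus strand), 4 rose and 0 fell where 9.16% of all genes tested rose, 0 of the 24 with 10 CPM or more was called, and 7 were higher and 15 lower at an adjusted p under 0.05.

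Genes count as risen or fallen where they differed over 2-fold with an adjusted p under 0.01 (quasi-likelihood test of edgeR, Benjamini-Hochberg adjustment). Of all 18218 genes tested, 9.16% rose and 1.06% fell, and the calls were concentrated among genes with few counts. Under 1 CPM, 665 of 2893 genes rose (23.0%), and from 1 to 10 CPM 881 of 5127 did (17.2%). From 10 to 100 CPM the number was 109 of 8009 (1.36%), and from 100 CPM upwards 13 of 2189 (0.594%). Over the 10198 genes with a mean of 10 CPM or more, 1.20% rose and 0.333% fell, which is 122 and 34 genes. The limit is a mean over both groups, so that a rise can carry a gene over it, and 76 of the 122 were under 10 CPM in Ctrl. With the limit set on the Ctrl mean alone, an alternative chosen after seeing the data, 0.462% of 9966 genes rose and 0.411% fell. These were 46 and 41 genes. Such a limit leaves out genes that rise from under 10 CPM and keeps genes that fall below it, so it favours falls. At the limit on the mean of both groups, 9 of the 34 falls were under 10 CPM in Upf3b-KO. The balance of rises and falls at this level thus varied with the limit and was not settled. In 121 of the 122 genes that rose, and in 31 of the 34 that fell, no Upf3b-KO library overlapped a Ctrl library. The 122 genes added 9875 CPM to a Upf3b-KO library, and the summed level of the genes that fell decreased by 2832 CPM. At the looser limit of an adjusted p under 0.05 and without any limit on size, 28.0% of all genes tested were higher and 25.3% lower in Upf3b-KO, so small shifts were common in both directions. Among genes of 10 CPM or more the shares at this limit were 24.6% higher and 37.6% lower.

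**Figure D1:**
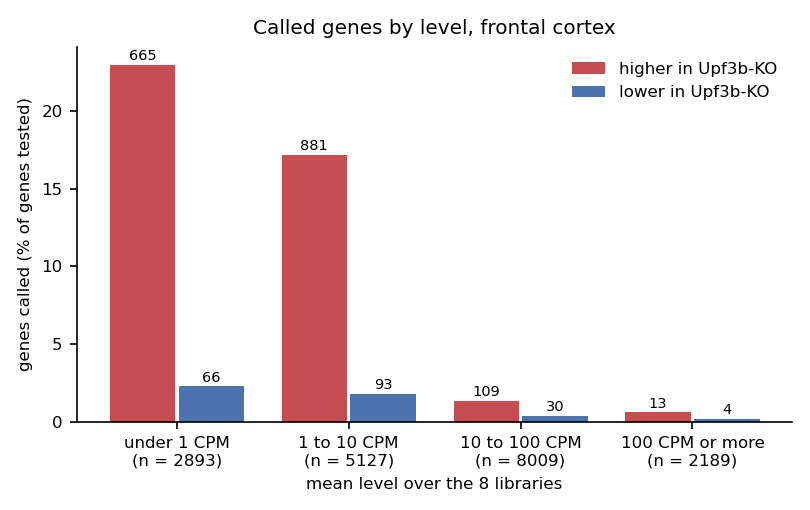
Bars give the percent of tested genes that rose (red) or fell (blue) in Upf3b-KO frontal cortex, adjusted p under 0.01 and over 2-fold, by the mean CPM of the gene, with the number of genes above each bar. The share that rose goes from 23.0% under 1 CPM to 0.594% at 100 CPM or more, and the share that fell from 2.28% to 0.183%.

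Among the largest rises of genes with a mean of 10 CPM or more were those of the choroid plexus epithelium, the tissue that secretes cerebrospinal fluid inside the ventricles. Of 21 markers of this epithelium, 18 rose and 0 fell, where 9.16% of all genes tested rose and 1.06% fell. Of the 15 with a mean of 10 CPM or more 13 rose, but 11 of these reached it through the Upf3b-KO libraries alone, and of the 4 at 10 CPM or more in Ctrl 2 rose. The median log2 fold change was 5.27 where that of all genes tested was 0.00. Transthyretin (Ttr), the thyroid hormone carrier that this epithelium secretes, was at 8.38, 7.46, 8.0 and 7.91 CPM in the Ctrl libraries and at 1834, 1841, 1887 and 1829 CPM in the Upf3b-KO libraries. The groups were far apart and each was tight, a log2 fold change of 7.79 ± 0.02 (SE, n = 4 and 4, edgeR quasi-likelihood adjusted p 5.99e-36). Enpp2, which makes lysophosphatidic acid, went from 226 ± 1.09 to 2959 ± 22.0 CPM (SD, n = 4 each). Kl, the klotho co-receptor of FGF23, went from 7.72 ± 0.665 to 166 ± 4.54 CPM.

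Transporters and channels of the same epithelium moved with them. The bicarbonate transporter gene Slc4a5 was at 0 to 0.217 CPM in the Ctrl libraries, near the limit of detection, and at 23.0 to 24.3 CPM in the Upf3b-KO libraries. The potassium channel subunit Kcne2 went from 0 to 0.319 CPM up to 22.9 to 26.7 CPM. Kcnj13, another potassium channel, was at 3.33 ± 0.476 CPM in Ctrl and 46.8 ± 1.56 CPM in Upf3b-KO (SD, n = 4 each), and the water channel Aqp1 from 0.436 ± 0.0317 to 19.4 ± 1.11 CPM. The tight junction gene Cldn2 rose from 0.730 ± 0.0891 to 29.9 ± 1.02 CPM, the chloride channel gene Clic6 from 1.26 ± 0.333 to 65.2 ± 1.28 CPM, and the folate receptor gene Folr1 from 0.597 ± 0.166 to 27.1 ± 1.0 CPM. Otx2, the transcription factor that specifies this epithelium, was at 0 in 2 of 4 Ctrl libraries and at no more than 0.0931 CPM in the other two, against 9.05 to 10.7 CPM in Upf3b-KO. Prlr, the prolactin receptor, rose from 1.95 ± 0.447 to 45.5 ± 1.04 CPM and F5, a coagulation factor, from 1.13 ± 0.152 to 61.0 ± 2.03 CPM. Cab39l (log2 fold change 0.83) and Slc13a4 (0.77) were higher at an adjusted p of at most 3.67e-11 without reaching 2-fold, and Wfikkn2 was at 0.622 against 0.568 CPM.

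The summed level of the 21 markers was 352 to 357 CPM in the Ctrl libraries and 5573 to 5637 CPM in the Upf3b-KO libraries. The 4 Upf3b-KO libraries thus held nearly the same amount of this RNA. In bulk tissue, more cells of a type and more RNA per cell cannot be told apart, and here neither can a difference in what was dissected. Their part in the other rises of this comparison was not tested.

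Genes of motile cilia and of the ciliated ependyma, which lines the ventricles next to the choroid plexus, moved the same way to a lesser extent. Which ciliated or germ cells these rises came from was not tested. Of 26 ependymal and motile cilium genes 25 were tested, of which 17 rose and 0 fell, where 9.16% of all genes tested rose and 1.06% fell. The list's median log2 fold change was 1.33. Just 5 of the 25 had a mean of 10 CPM or more, and 17.2% of all genes from 1 to 10 CPM rose. Rsph1, a part of the radial spoke of cilia, went from 4.56 ± 0.275 to 20.2 ± 0.706 CPM (SD, n = 4 each). Cfap54 went from 4.4 ± 0.425 to 17.4 ± 1.06 CPM, and Foxj1, the transcription factor that drives motile cilium genes, from 4.87 ± 0.492 to 11.7 ± 0.486 CPM. Rsph1, Cfap54 and Spag6l rose and had a mean of 10 CPM or more, but reached it through the Upf3b-KO libraries, and the axonemal dyneins Dnah5, Dnah9, Dnai1 and Dnai2 were higher by 0.47 to 0.71 on the log2 scale without reaching 2-fold. The summed level was 91.1 to 99.0 CPM in Ctrl and 210 to 218 CPM in Upf3b-KO.

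Genes of striatal projection neurons, the medium spiny neurons of the striatum that lies beneath the frontal cortex, formed the second programme. Of 21 markers 20 were tested, of which 18 rose and 0 fell, where 9.16% of all genes tested rose and 1.06% fell. At 10 CPM or more in Ctrl 8 of 10 rose, where 0.462% of all such genes did. The median log2 fold change of the list was 1.94. Penk, the enkephalin precursor, was at 37.6, 35, 37.3 and 39.4 CPM in the Ctrl libraries and at 252, 251, 249 and 248 CPM in the Upf3b-KO libraries. Every Upf3b-KO library was several times above every Ctrl library (log2 fold change 2.67 ± 0.03, SE, n = 4 and 4, edgeR quasi-likelihood adjusted p 3.31e-25). Ppp1r1b, which encodes the dopamine-regulated phosphatase inhibitor DARPP-32, went from 67.6 ± 1.88 to 298 ± 2.54 CPM (SD, n = 4 each), and Pde10a, a cyclic nucleotide phosphodiesterase, from 43.6 ± 1.6 to 171 ± 2.41 CPM.

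Both classes of projection neuron took part. The adenosine receptor Adora2a and the dopamine receptor Drd2, which mark the indirect pathway, rose from 2.55 ± 0.561 to 38.5 ± 1.81 CPM and from 1.38 ± 0.589 to 12.6 ± 0.804 CPM. Drd1 and Tac1 (substance P), which mark the direct pathway, rose from 13.3 ± 0.916 to 43.6 ± 1.12 CPM and from 17.0 ± 1.15 to 36.4 ± 1.0 CPM. Pdyn (log2 fold change 0.72) and Adcy5 (0.66) were higher at an adjusted p of at most 7.62e-11 without reaching 2-fold. The summed level of the list was 352 to 367 CPM in Ctrl and 1309 to 1329 CPM in Upf3b-KO.

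**Figure D2:**
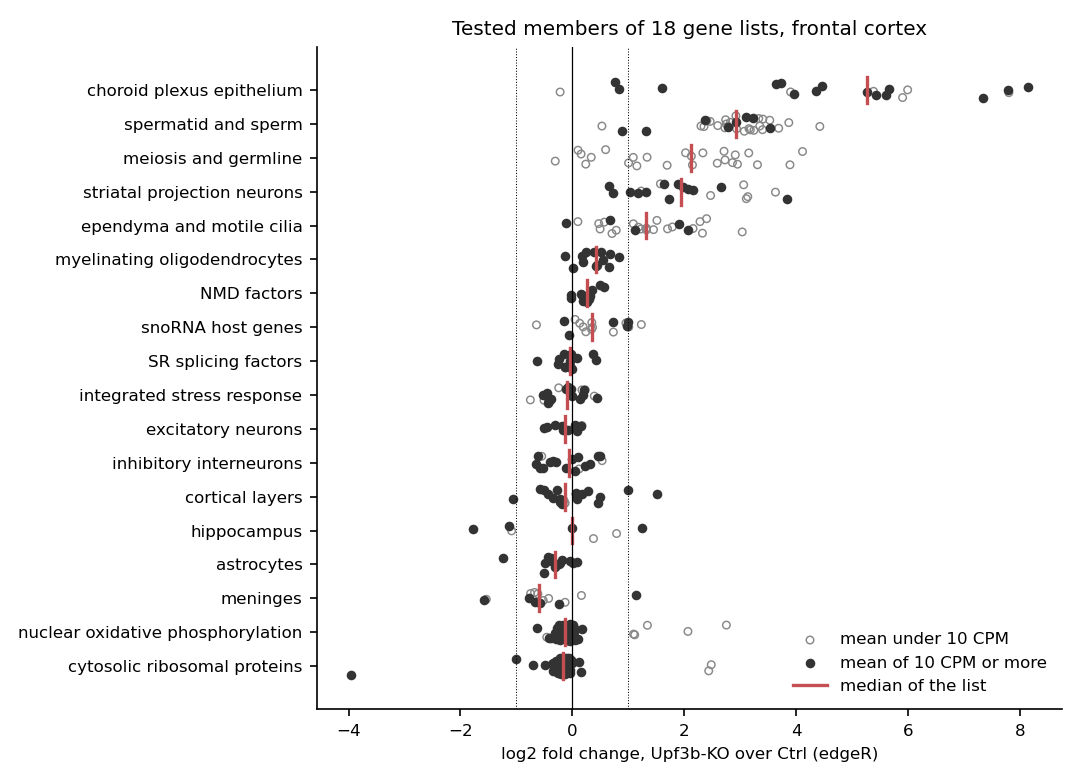
Each point is the log2 fold change (Upf3b-KO over Ctrl) of a tested member of one of 18 gene lists, filled where its mean is 10 CPM or more, with the median of the list in red and dotted lines at a 2-fold change. The choroid plexus, spermatid, meiosis, striatal and ependymal lists have medians of 5.27, 2.94, 2.13, 1.94 and 1.33, and the medians of the other lists lie between -0.60 and 0.43.

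The third programme was that of male germ cells, genes whose known expression is in the testis and not in the brain. Of 32 genes of spermatids and sperm, 30 rose and 0 fell, with a median log2 fold change of 2.94. Of all genes tested 9.16% rose and 1.06% fell, with 17.2% rising from 1 to 10 CPM and 23.0% under 1 CPM. None of the 32 was at 10 CPM or more in Ctrl. Akap4, the main protein of the sperm tail's fibrous sheath, was at 3.39, 2.88, 3.36 and 2.92 CPM in the Ctrl libraries and at 38.8, 39.1, 37.4 and 37.9 CPM in the Upf3b-KO libraries. The groups did not overlap, a log2 fold change of 3.53 ± 0.07 (SE, n = 4 and 4, edgeR quasi-likelihood adjusted p 1.64e-20). Prm2, a protamine that packs sperm DNA, went from 6.04 ± 0.835 to 48.7 ± 1.33 CPM (SD, n = 4 each), Smcp, a protein of the sperm mitochondrial sheath, from 4.94 ± 0.491 to 44.7 ± 2.22 CPM, and Ldhc, the germ cell lactate dehydrogenase, from 3.44 ± 0.128 to 34.0 ± 1.76 CPM. RNA of these genes was measurable in the Ctrl libraries too, where the summed level of the list was 60.7 to 64.9 CPM against 399 to 418 CPM in Upf3b-KO.

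Meiotic genes behaved alike at lower levels, where 25 of 33 listed were tested, 19 rose, 0 fell and none reached a mean of 10 CPM. At these levels 17.2% (1 to 10 CPM) and 23.0% (under 1 CPM) of all genes rose. Mael, a protein of the piRNA pathway, went from 2.09 ± 0.532 to 16.6 ± 1.6 CPM (SD, n = 4 each) and Tdrd6, a protein of germ granules, from 0.465 ± 0.165 to 7.34 ± 0.725 CPM, whereas the synaptonemal complex gene Sycp3 was at 1.77 against 2.20 CPM. Of the somatic cells of the testis, 6 of 12 markers passed the filter on low counts and 3 rose, where 17.2% of all genes from 1 to 10 CPM and 23.0% of those under 1 CPM rose. These were the steroid enzymes Cyp11a1 (2.14 ± 0.378 to 4.86 ± 0.590 CPM) and Cyp17a1 (0.196 ± 0.0780 to 1.10 ± 0.184 CPM) and the Leydig cell hormone Insl3 (0.599 ± 0.406 to 1.67 ± 0.234 CPM), whose call was lost without Ctrl 1, 2 or 3 or any Upf3b-KO library, with adjusted p up to 0.0352 or, without Ctrl 3, a log2 fold change of 0.98 (edgeR quasi-likelihood test). The part of other tissue in these values was not tested.

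**Figure D3:**
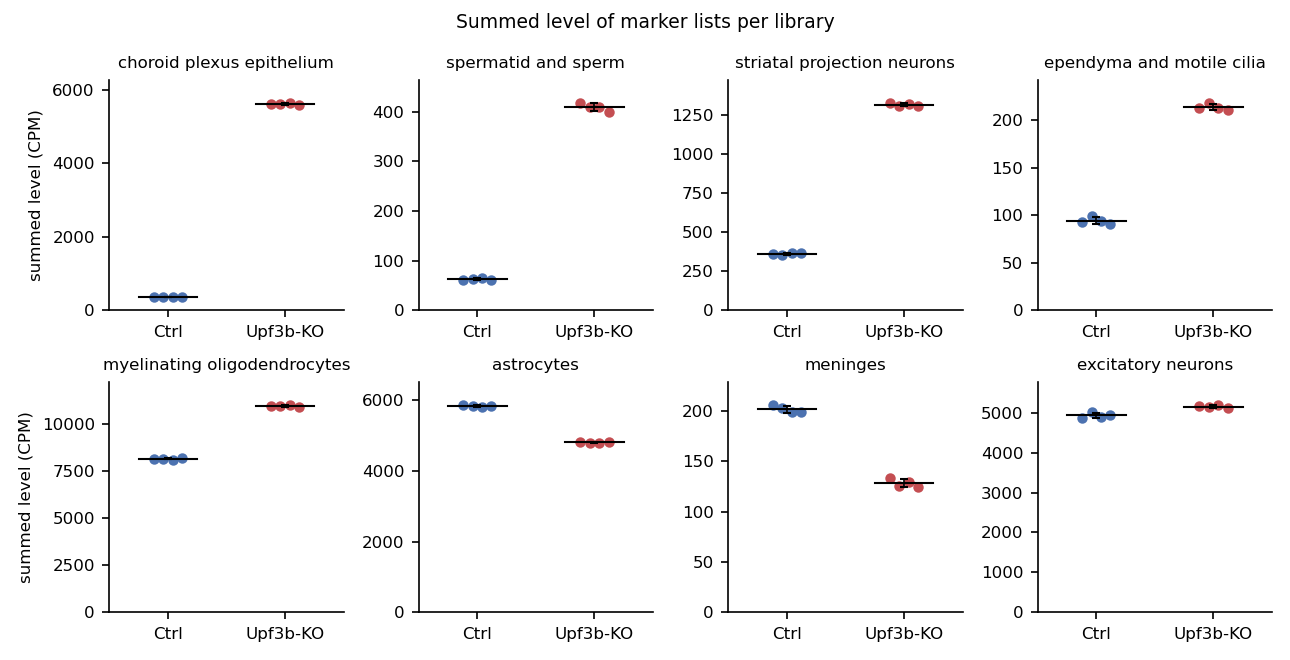
Summed CPM of the members of 8 marker lists in each library (points, Ctrl blue and Upf3b-KO red), with the mean (line) and SD (bar) of 4 libraries, each panel on its own axis from 0. The groups are apart for choroid plexus (352 to 357 against 5573 to 5637 CPM), spermatids (60.7 to 64.9 against 399 to 418 CPM) and striatum (352 to 367 against 1309 to 1329 CPM), and the meningeal and astrocyte sums are lower in Upf3b-KO.

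Together, the choroid plexus, ependyma, spermatid and striatal lists held 34 of the 122 genes that rose at 10 CPM or more. Of these rises, 11 of 13, 3 of 3, 7 of 7 and 3 of 11, in the order of the lists, were under 10 CPM in Ctrl. With the limit on the Ctrl mean alone, the lists held 2, 0, 0 and 8 of the 46 rises. Genes that define cortex itself were present in both groups, with the summed level of 10 excitatory neuron markers at 4866 to 5013 CPM in Ctrl and 5107 to 5183 CPM in Upf3b-KO. Most single markers did not follow this sum, since 6 of the 10 were lower and 2 higher at an adjusted p under 0.05 (median log2 fold change -0.13). Of 21 markers of cortical layers 1 rose and 1 fell, with 9 higher and 9 lower at that limit (24.6% and 37.6% of all genes of 10 CPM or more were), and 0 of 10 markers of excitatory neurons and 0 of 18 of inhibitory interneurons were called in either direction. Fezf2, which specifies the subcortical projection neurons of the deep layers, was at 33.8, 34.0, 32.0 and 33.1 CPM in the Ctrl libraries and at 16.6, 15.9, 16.8 and 17.7 CPM in the Upf3b-KO libraries. The Upf3b-KO values were all lower (log2 fold change -1.06 ± 0.05, SE, n = 4 and 4, edgeR quasi-likelihood adjusted p 8.1e-14). Syt6, a synaptotagmin of deep layer neurons, rose from 12.0 ± 0.607 to 36.1 ± 1.56 CPM.

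Smaller shifts in neuronal markers went both ways. Sst, the interneuron peptide somatostatin, was lower by 0.65 on the log2 scale and Nos1 by 0.61, while Lamp5 was higher by 0.46 and the deep layer gene Pcp4 by 0.50. Lists of other brain regions were mixed and are to be read beside the 9.16% of all genes tested that rose and the 1.06% that fell. Of 9 tested thalamic markers 1 rose (Prkcd, a protein kinase, 11.6 ± 0.566 to 28.7 ± 1.77 CPM), of 7 hypothalamic markers 3 rose, all under 10 CPM, and of 4 olfactory bulb markers none was called, with 2 lower at an adjusted p under 0.05. Of 6 cerebellar markers 0 rose and 1 fell.

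Hippocampal markers split, with 1 of 7 up and 3 down, where 9.16% of all genes tested rose and 1.06% fell. The dentate gyrus gene C1ql2, a synaptic organiser, was at 51.0, 52.9, 54.7 and 50.8 CPM in the Ctrl libraries and at 15.7, 16.2, 15.7 and 16.7 CPM in the Upf3b-KO libraries. That is a separation with no overlap (log2 fold change -1.78 ± 0.04, SE, n = 4 and 4, edgeR quasi-likelihood adjusted p 1.47e-18). The CA1 genes Fibcd1 and Spink8 fell from 81.6 ± 1.88 to 39.2 ± 1.14 CPM and from 8.67 ± 0.566 to 4.31 ± 0.377 CPM (SD, n = 4 each), while Lct, the lactase gene, rose from 8.05 ± 0.524 to 20.3 ± 0.916 CPM.

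Glial and vascular markers shifted by less than 2-fold with few exceptions. Their counts at an adjusted p under 0.05 stand beside 24.6% higher and 37.6% lower among all genes of 10 CPM or more. Of 13 markers of myelinating oligodendrocytes none was called, yet 11 were higher and 1 lower at an adjusted p under 0.05, and their summed level went from 8093 to 8180 CPM in Ctrl to 10892 to 10972 CPM in Upf3b-KO. The myelin genes Mobp and Mag were higher by 0.51 and 0.66 on the log2 scale and Ugt8a, the enzyme for myelin galactolipids, by 0.84. Astrocyte markers went the other way. Of 13, 10 were lower and 1 higher at an adjusted p under 0.05, the glutamate transporters Slc1a3 and Slc1a2 by 0.50 and 0.43 on the log2 scale, and Agt, angiotensinogen, fell from 30.3 ± 0.306 to 13.5 ± 1.12 CPM (SD, n = 4 each). Agt shared 29.8% of its 31-base words with other genes, and its sum with Cog2 was lower by 0.37 on the log2 scale. A smaller change in the sum would also follow from an unchanged Cog2.

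Of 14 meningeal markers, 2 fell, 1 rose and 11 were lower at an adjusted p under 0.05, with a summed level of 198 to 206 CPM in Ctrl and 125 to 133 CPM in Upf3b-KO. Dcn, the matrix proteoglycan decorin, fell from 72.7 ± 4.13 to 25.6 ± 1.55 CPM, and Slc47a1, an organic cation transporter, from 9.16 ± 0.297 to 3.32 ± 0.0900 CPM. Igf2, a growth factor that choroid plexus also makes, rose from 6.52 ± 0.668 to 15.2 ± 1.24 CPM. None of the markers of microglia (12), endothelium (12), oligodendrocyte precursors (7) or red blood cells (5) was called, and 1 of 11 pericyte and smooth muscle markers fell. At an adjusted p under 0.05, 5 of the precursor markers were higher and 0 lower, 6 of the endothelial markers higher and 1 lower, 4 of the microglial markers higher and 1 lower, and all 5 red blood cell markers lower.

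Of 11 NMD factor genes none reached 2-fold. At an adjusted p under 0.05, 8 were higher and 0 lower, where 24.6% of all genes of 10 CPM or more were higher and 37.6% lower, with a median log2 fold change of 0.27. Smg5, which recruits the decay enzymes, was at 40.6, 38.8, 41.0 and 39.2 CPM in the Ctrl libraries and at 60.8, 60.9, 65.4 and 61.2 CPM in the Upf3b-KO libraries. No library of one group reached the other (log2 fold change 0.56 ± 0.04, SE, n = 4 and 4, edgeR quasi-likelihood adjusted p 1.38e-11). Upf2 was higher by 0.49 on the log2 scale, the kinase Smg1 by 0.36, the helicase Upf1 by 0.29 and the paralogue Upf3a by 0.27, while Smg6 and Smg8 differed by -0.02 each. Members of the exon junction complex were not called either, with 1 higher and 5 lower at an adjusted p under 0.05 of 9.

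Host genes of small nucleolar RNAs, whose spliced transcripts are known NMD targets, had 2 of 17 members called up and 0 down where 9.16% of all genes tested rose, with 8 higher and 2 lower at an adjusted p under 0.05. Gas5 went from 48.4 ± 0.951 to 84.2 ± 1.12 CPM (SD, n = 4 each; log2 fold change 0.72) and Zfas1 from 8.33 ± 0.615 to 17.3 ± 0.569 CPM (0.98), just under the 2-fold limit. Snhg6 (1.0) was also just outside the limit and Snhg5 (1.01) just inside it, which it left without Ctrl 2 (0.93), Ctrl 4 (0.98), Upf3b-KO 1 (0.98) or Upf3b-KO 3 (0.99). Targets of the integrated stress response were not called (0 of 20), with 3 higher and 9 lower at an adjusted p under 0.05 where 28.0% and 25.3% of all genes tested were. Asns, the amino acid synthesis enzyme, was lower by 0.42 on the log2 scale and the amino acid transporters Slc7a5 and Slc7a11 by 0.53 and 0.45.

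Of 13 SR splicing factors none was called. At an adjusted p under 0.05, 3 were higher and 6 lower, where 24.6% and 37.6% of all genes of 10 CPM or more were. Srsf2 was lower by 0.63 on the log2 scale and Srsf4 higher by 0.43, and 32 other splicing regulators gave 0 calls with 9 higher and 11 lower, shares near those of all genes. Components of housekeeping complexes gave small negative medians and so did the genes with the most counts. Of the 2189 genes at 100 CPM or more, 1385 were lower at an adjusted p under 0.05, with a median log2 fold change of -0.10, and of all genes of 10 CPM or more 37.6% were lower. Of 85 ribosomal protein genes 66 were lower at an adjusted p under 0.05 (median log2 fold change -0.16), of 84 nuclear oxidative phosphorylation genes 61 were (-0.13), and of 13 proteins encoded by the mitochondrial genome 12 were (-0.19). The genes of these complexes that rose were 2 ribosomal protein genes, Rpl39l and Rpl10l, and 5 oxidative phosphorylation genes, Cox8c, Cox6b2, Cox7a1, Cox8b and Cox7b2, all under 10 CPM. Rpl39l, Rpl10l, Cox8c, Cox6b2 and Cox7b2 are known as forms of the testis. The falls were Rpl26 and Rpl29. Rpl29 went from 41.6 ± 0.874 to 21.8 ± 1.48 CPM (SD, n = 4 each), a log2 fold change of -1.01 that left the 2-fold limit without Ctrl 1 (-0.996), Upf3b-KO 1 (-0.97) or Upf3b-KO 2 (-0.99), and it shared 25.5% of its 31-base words with other genes.

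Among synaptic genes, 0 of 24 glutamate receptor genes were called, with 1 higher and 13 lower at an adjusted p under 0.05, where 24.6% of all genes of 10 CPM or more were higher and 37.6% lower. The AMPA receptor subunit Gria1 was lower by 0.49 on the log2 scale and the NMDA receptor subunit Grin2b by 0.50. Of 13 GABA-A receptor genes 8 were lower and 3 higher at the same limit, and Gabra2 was the one called. Its level was 69.0, 74.3, 73.2 and 67.5 CPM in the Ctrl libraries and 232, 229, 231 and 230 CPM in the Upf3b-KO libraries. Every Upf3b-KO library was far above every Ctrl library (log2 fold change 1.62 ± 0.03, SE, n = 4 and 4, edgeR quasi-likelihood adjusted p 5.93e-22), while its relatives Gabrg1 and Gabra5 were lower by 0.68 and 0.48 on the log2 scale.

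Of 22 immediate early genes, which neurons switch on after activity, 3 rose and 0 fell, 1 of 17 at 10 CPM or more, where 9.16% of all genes tested rose. At an adjusted p under 0.05, 13 were higher and 5 lower, where 28.0% and 25.3% of all genes tested were. Arc, which controls AMPA receptor uptake at synapses, was at 59.3, 61.3, 60 and 63.8 CPM in the Ctrl libraries and at 172, 173, 174 and 182 CPM in the Upf3b-KO libraries. The rise held in every library (log2 fold change 1.45 ± 0.03, SE, n = 4 and 4, edgeR quasi-likelihood adjusted p 1.3e-20). Fos and Egr2 rose from 4.77 ± 0.423 to 13.9 ± 1.09 CPM and from 0.709 ± 0.115 to 2.71 ± 0.365 CPM (SD, n = 4 each), whereas Npas4 was at 3.05 ± 0.449 against 3.45 ± 0.546 CPM. Interferon-stimulated genes gave 2 rises (Ifit2 and Trim30a) and 2 falls (Ifit3 and Ifit3b) among 25, where 9.16% of all genes tested rose and 1.06% fell. Trim30a was close to the limit, at a log2 fold change of 1.04 and of 0.99 without Ctrl 4 or 0.98 without Upf3b-KO 4. Ifit2 went from 16.7 ± 0.387 to 37.6 ± 1.10 CPM. Ifit3 and its near copy Ifit3b fell from 13.7 ± 1.6 to 1.46 ± 0.270 CPM and from 9.20 ± 1.13 to 2.82 ± 0.418 CPM.

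The 10 well measured genes with the strongest falls included several with no listed role. Rpl26, a protein of the large ribosomal subunit, was at 72.2, 82.3, 75.7 and 73.4 CPM in the Ctrl libraries and at 5.17, 5.27, 4.82 and 5.30 CPM in the Upf3b-KO libraries. Pttg1, securin, which holds sister chromatids together, fell from 40.3 ± 0.566 to 3.88 ± 0.717 CPM (SD, n = 4 each). Pttg1 shared 8.81% of its 31-base words with other genes, and its sum with Slu7 was lower by 0.27 on the log2 scale. A smaller change in the sum would also follow from an unchanged Slu7. Ccar2, an inhibitor of the deacetylase SIRT1, fell from 95.9 ± 1.49 to 16.8 ± 1.14 CPM. Grp, gastrin-releasing peptide, fell from 16.7 ± 0.918 to 5.45 ± 0.458 CPM, and Myoc, myocilin, from 25.8 ± 0.494 to 8.59 ± 0.597 CPM. Cstpp1 fell from 96.7 ± 2.24 to 36.4 ± 1.37 CPM, the transcription factor gene Tshz2 from 111 ± 4.14 to 43.9 ± 1.91 CPM and Aldh7a1, an aldehyde dehydrogenase of lysine breakdown, from 77.8 ± 2.42 to 31 ± 1.2 CPM.

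Some of the called genes share sequence with other genes, and RSEM divides the reads of such genes by its model. Of the genes called at 10 CPM or more, 26 of 122 up and 9 of 34 down shared over 20% of their 31-base words with other genes, and without them 96 and 25 remained. Rpl26 and its processed pseudogene Gm15772 mirrored each other, since Gm15772 was at 0.603 to 0.913 CPM in Ctrl and 59.0 to 63.8 CPM in Upf3b-KO. Their sum was 76.6 ± 4.62 against 66.8 ± 1.81 CPM (SD, n = 4 each), so that the pair together was lower by 0.20 on the log2 scale. Ubiquitin B (Ubb) and its 3 copies did the same, with Gm8797 going from 3.92 ± 0.345 to 198 ± 1.39 CPM while the sum of the 4 went from 2480 ± 38.4 to 2175 ± 27.5 CPM. Ndufa12-ps rose from 1.14 ± 0.387 to 24.0 ± 1.04 CPM, and its sum with Ndufa12, a subunit of respiratory complex I, was lower by 0.20 on the log2 scale. Of the 26 and 9 genes with over 20% shared words, 13 and 7 were within 2-fold once summed with the gene they shared most with. Rpl26, at 8.83% shared words, was not among the 9. Agt, Cstpp1 (summed with Arfgap2, lower by 0.47 on the log2 scale) and Cabyr (summed with Osbpl1a, higher by 0.25) were among these 13 and 7. An unchanged partner with more counts also makes the change of such a sum small, so the sums alone do not show how reads were divided. The choroid plexus genes named above that rose shared at most 11.6% of their words with other genes, the highest being Kcnj13 with Gigyf2.

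Among genes of 1 to 10 CPM the strongest rises were of genes nearly absent from the Ctrl libraries. Actl7b, an actin-related protein of spermatids, was at 0 in all Ctrl libraries and at 2.03 to 3.39 CPM in Upf3b-KO, at least 29.8-fold higher when Ctrl is set to 3 counts per library. Prr32 and Spata31h1 were at no more than 0.0931 CPM in any Ctrl library and at 4.59 to 5.54 and 2.31 to 3.56 CPM in Upf3b-KO. The processed pseudogene Gm10355 was at 2.20 to 2.62 CPM in Upf3b-KO and the beta-defensin gene Defb11 at 1.81 to 2.96 CPM. In the other direction, Gm16867 was at 13.3 to 15.5 CPM in the Ctrl libraries and at 0 in 3 of 4 Upf3b-KO libraries. The pseudogene Gm5859 was at 1.92 to 3.89 CPM in Ctrl and at 0 in all Upf3b-KO libraries, at least 27.5-fold lower, and its neighbour Gm17081 went from 3.36 to 3.99 CPM down to at most 0.203 CPM. Or2ak4, an olfactory receptor gene, went from 4.92 to 5.88 CPM down to at most 0.131 CPM. Gm16867, Gm5859 and Gm17081 shared 80.0% or more of their words with other genes.

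Kept apart, transcripts gave fewer calls for their number, with 2.76% of 42318 tested transcripts up and 0.463% down (1166 and 196). With DESeq2 the numbers were 2268 and 487, and without one Upf3b-KO library in turn 770 to 806 were called up. Gene and transcript calls overlapped in part. Of the 1668 genes that rose, 861 also had a transcript that rose, which is 930 of 1159 matched transcripts called up. The other 229 lay in genes that were not called up. For falls, 94 of 193 genes had a transcript that fell, and 90 of 194 matched transcripts lay in genes not called down. Transcripts with a dEJ made up 91 of 942 (9.66%) of those called up with an annotated coding end, 7 of 136 (5.15%) of those called down and 9.03% of those not called.

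Usage, the share of a transcript among its gene's transcripts, separates an isoform shift from a change of the whole gene. Of 34066 transcripts tested in edgeR's test of each transcript against the rest of its gene, 0.367% gained and 0.132% lost usage (adjusted p under 0.01 and over 2-fold). These were 125 and 45 transcripts of 156 genes. In 7 genes one transcript gained and another lost usage (among them Celf2, Chpt1, Enpp2, Gas2l2, Ndfip2 and Pantr1), and 15 of the 156 genes were also called at gene level, where 9.16% of all genes tested were called up and 1.06% down. The split of gains and losses moved with the fit, from 272 gained and 181 lost with limma to 69 and 29 with the replicate block. Without Upf3b-KO 2 it was 108 and 74, and without any other Upf3b-KO library 64 to 66 lost usage. Of the 20 transcripts named by rule in the next paragraphs, 12 no longer passed under limma's test, among them Clip4-212, Akap12-203, Septin4-204, Mrpl58-203, Camk2a-201, Snap25-202, Lcorl-202, Arel1-202, Ddhd1-206, Tmf1-202 and both of Enpp2.

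Synpr-202, from the gene for a synaptic vesicle protein, made up 12.9%, 16.0%, 13.1% and 15.5% of the gene's counts in the Ctrl libraries and 46.8%, 46.6%, 39% and 45.3% in the Upf3b-KO libraries. This was the gain with the smallest adjusted p (log2 usage change 1.63 ± 0.08, SE, n = 4 and 4, edgeR adjusted p 1.36e-15). Ptk2b-202, from a calcium-regulated tyrosine kinase gene, went from 1.93% ± 0.710 to 10.4% ± 1.09 (SD, n = 4 each). Ptpn5-209, a retained-intron form of the gene for the striatum-enriched phosphatase STEP, went from 3.31% ± 1.05 to 24.1% ± 3.58, and Mrpl58-203, from a gene of the mitochondrial ribosome, from 0.169% ± 0.338 to 13% ± 3.8.

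Some gains were from 0. Clip4-212, Akap12-203 and Septin4-204 were at 0 in all Ctrl libraries. Akap12-203, from a scaffold protein gene, made up 24.9% to 38.7% of its gene in Upf3b-KO and was at least 194-fold higher in CPM when Ctrl is set to 3 counts per library. Clip4-212 made up 6.18% to 13.1%, at least 74.6-fold higher, and Septin4-204 made up 7.10% to 7.75% in 3 libraries but 0.389% in the fourth, so its mean, at least 128-fold higher, varies widely.

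Losses included transcripts of well-known synaptic genes. Camk2a-201, of the kinase central to synaptic plasticity, made up 12.9%, 13.9%, 13.7% and 14.7% of its gene in the Ctrl libraries and 5.73%, 6.11%, 6.33% and 5.65% in the Upf3b-KO libraries. All Upf3b-KO values were lower (log2 usage change -1.21 ± 0.05, SE, n = 4 and 4, edgeR adjusted p 3.56e-13). Snap25-202, of a protein of vesicle fusion, went from 3.02% ± 0.0574 to 1.43% ± 0.0860 (SD, n = 4 each) and Ank2-208, of ankyrin-B, from 9.11% ± 1.47 to 3.79% ± 0.779. Slc30a9-201 made up 3.12% to 5.68% in Ctrl and Lcorl-202 8.19% to 35.6%, and both were at 0 in all Upf3b-KO libraries, at least 97.5-fold and 110-fold lower in CPM. In Enpp2, the choroid plexus gene above, Enpp2-202 went from 18.7% ± 1.79 to 5.08% ± 0.222 and Enpp2-204 from 2.60% ± 0.452 to 6.19% ± 0.190.

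**Figure D4:**
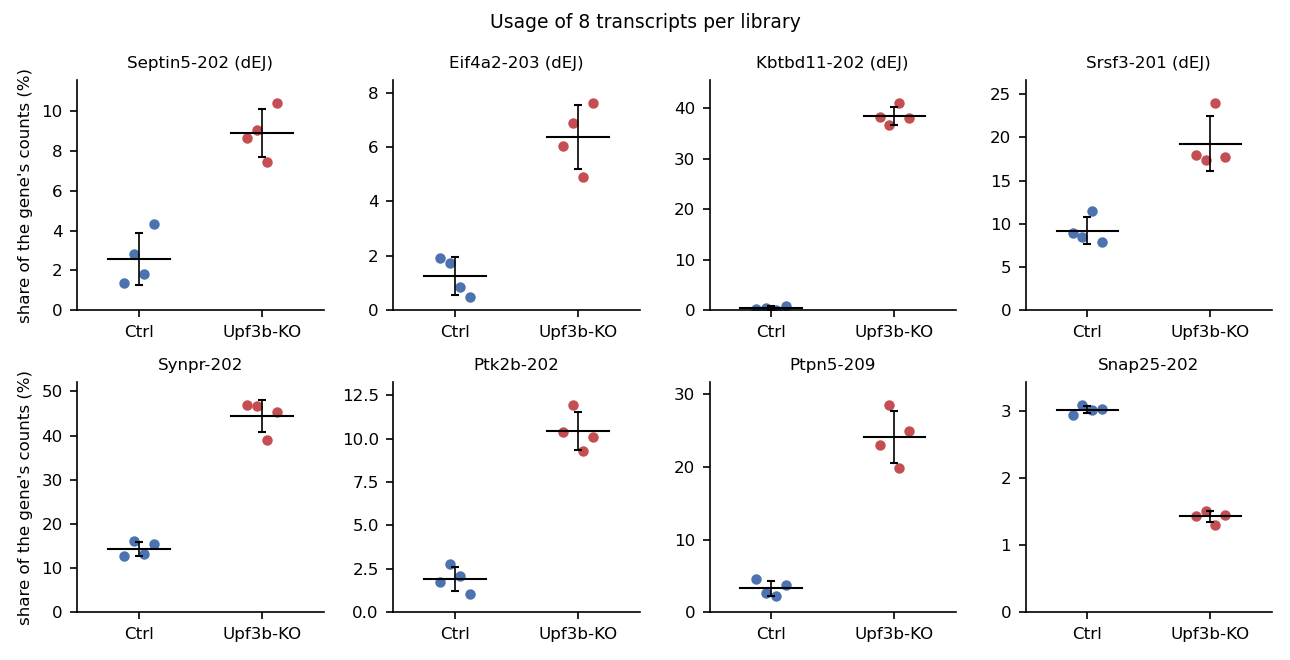
Percent of the gene's counts taken by 8 transcripts, 4 of them with a downstream exon junction (dEJ), in each library (points), with the mean (line) and SD (bar) of 4 libraries, each panel on its own axis from 0. On average Kbtbd11-202 goes from 0.398% to 38.6%, Synpr-202 from 14.4% to 44.4% and Snap25-202 from 3.02% to 1.43%, and the groups do not overlap in any panel.

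Transcripts with a dEJ were more frequent among the gains. With an annotated coding end, 28 of 104 transcripts that gained usage had a dEJ (26.9%), against 4 of 30 that lost usage (13.3%) and 10.8% of the 23121 not called. In genes of 10 CPM or more, 64.4% of 2164 tested dEJ transcripts had a higher share in Upf3b-KO, where 49.7% of 17454 others did. These are counts of transcripts, which are not independent replicates.

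Kbtbd11-202 was the clearest of them in the separation of the libraries. Its share was 0.302%, 0.463%, 0% and 0.83% in the Ctrl libraries and 38.2%, 36.8%, 41.1% and 38.2% in the Upf3b-KO libraries. It thus went from a trace to a large part of the gene's counts (log2 usage change 6.60 ± 0.58, SE, n = 4 and 4, edgeR adjusted p 3.26e-07), while the gene as a whole was lower by 0.81 on the log2 scale. Eif4a2-203 went from 1.24% ± 0.696 to 6.36% ± 1.18 (SD, n = 4 each) and Septin5-202 from 2.57% ± 1.31 to 8.89% ± 1.22. Arel1-202, Ddhd1-206 and Tmf1-202, from genes for a ubiquitin ligase, a phospholipase and a Golgi protein, were at 0 in every Ctrl library and averaged 9.01% ± 3.68, 2.48% ± 1.32 and 9.89% ± 3.84 in Upf3b-KO, at least 149-fold, 17.0-fold and 83.8-fold higher in CPM.

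The poison-exon form Srsf3-201, which was chosen after its values were seen, went from 9.21% to 19.3% of its gene's counts (log2 usage change 1.06, edgeR adjusted p 6.95e-06) while the gene was lower by 0.23 on the log2 scale. The like form of the splicing factor gene Tra2b, Tra2b-206, also chosen after its values were seen, was at 5.84% against 11.4% without passing (adjusted p 0.473).

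Summed over the library, transcripts with a dEJ took 2.87% to 2.91% of the counts in Ctrl and 3.19% to 3.21% in Upf3b-KO, a relative increase of 10.9%. The groups did not overlap (exact permutation test over 8 libraries, two-sided, p 0.0286, the smallest that 4 against 4 allow). The same p, also after adjustment over the 8 shares compared, was obtained for every other class, so the sizes carry the information. The annotated NMD class rose from 2.71% to 2.99%, long non-coding RNA from 1.03% to 1.10% and processed pseudogenes from 0.115% to 0.147%. Of the 325 CPM that processed pseudogenes gained, 190 CPM came from 6 genes called up at 10 CPM or more, whose sums with the gene they shared most with differed by -0.39 to 0.02 on the log2 scale. Retained introns went from 1.65% to 1.69% and transcripts of coding genes without a defined frame from 1.48% to 1.53%. Protein-coding transcripts went from 90.4% to 89.9% and the mitochondrial genome from 4.91% to 4.48%.

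**Figure D5:**
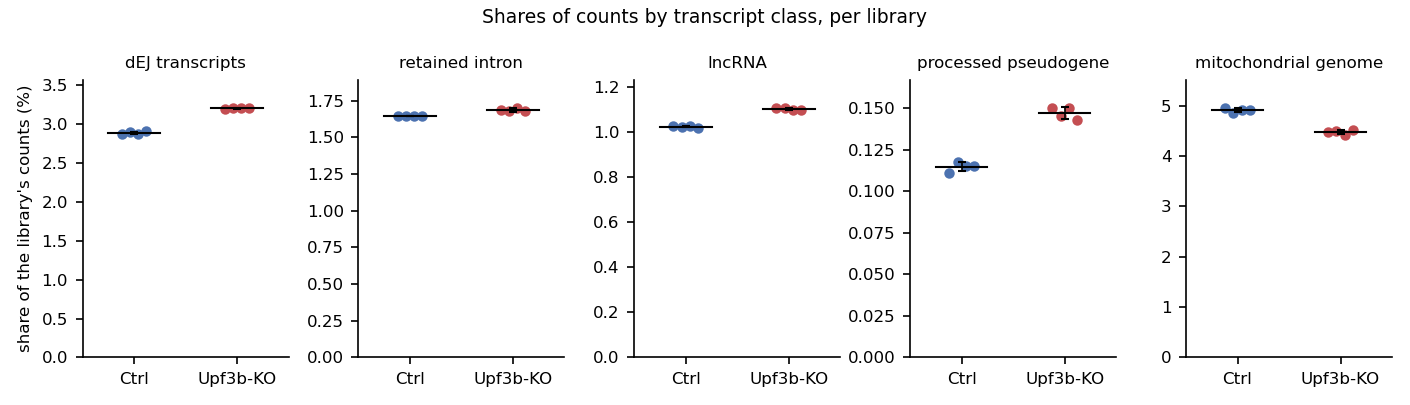
Percent of a library's counts taken by transcripts with a downstream exon junction (dEJ), 3 transcript classes and the mitochondrial genome, with points for libraries and the mean (line) and SD (bar) of 4 libraries, each panel on its own axis from 0. Transcripts with a dEJ lie at 2.87% to 2.91% in Ctrl and 3.19% to 3.21% in Upf3b-KO, with no overlap.

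Mobp held the dEJ transcript with the largest gain. The dEJ transcript of Mobp went from 1441 ± 4.43 to 2199 ± 21.8 CPM (SD, n = 4 each), in step with other myelin genes. Without Mobp the relative increase was 8.76%, without all genes called at gene level 9.25%, and without both 6.95%. Next in size were the dEJ transcripts of Pcnp, a nuclear protein gene (168 ± 13.3 to 279 ± 8.27 CPM), Arc (40.5 ± 4.66 to 115 ± 12.7 CPM for the transcript shown), Gabra2 (38.9 ± 3.04 to 111 ± 1.14 CPM) and Brd2 (31.5 ± 1.89 to 102 ± 7.2 CPM). The largest loss was that of Lars2, a mitochondrial leucyl-tRNA synthetase gene, at 8275 ± 160 against 7608 ± 60.6 CPM. This loss lowers each relative increase given above, and the increase without Lars2 was not computed.

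At gene level the same feature went with small rises. Of the 158 genes with 10 CPM or more whose counts came at least to 50% from dEJ transcripts, 6 rose and 0 fell, and 63.9% were higher in Upf3b-KO. Of the 564 genes with 10% to 50%, 8 rose and 0 fell, and 60.1% were higher. Of the 9476 genes with less, 108 rose and 34 fell, and 40.8% were higher. The 6 were Gabra2, Syt6, Arc, Supt20, Cabyr and Cpne9. Supt20, a subunit of the SAGA coactivator, went from 24.0 ± 1.41 to 65.6 ± 4.55 CPM (SD, n = 4 each) and Cpne9, a copine, from 15.8 ± 0.888 to 35.5 ± 1.89 CPM. Cabyr, also in the spermatid list, went from 6.73 ± 0.833 to 17.6 ± 0.543 CPM. The grouping by dEJ share was chosen after values were seen. Both the share and the 10 CPM limit were taken over the libraries of both groups. A dEJ transcript that is high in Upf3b-KO can thus carry its gene into these groups, so the link with rises could in part be built in. Cabyr, for example, reached the limit through the Upf3b-KO libraries alone.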

How the data were processed

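Total RNA from frontal cortex was depleted of ribosomal RNA, made into SMART-Seq libraries and sequenced in read pairs, per the methods of the study. Reads were aligned by the authors to GRCm39 with STAR 2.5.2b, and the deposited values are expected counts per transcript, which RSEM estimates from the reads that fit each transcript, unscaled for depth and length. RSEM divides reads that match several transcripts, so isoforms and near-identical genes share them, and no binomial interval was given for usage. Whether counting used the strand was not given in the sources used here, so overlapping and antisense genes are uncertain.

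Of 142435 transcripts, 141102 matched GENCODE vM39 by identifier and were summed to 55266 genes. The study names an earlier Ensembl release. A transcript had a dEJ if an annotated junction followed its stop codon by 50 nt or more, which held for 7399 of 54450 transcripts with a coding end.

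Expected counts were rounded, filtered (filterByExpr, minimum count 10, minimum total 15), scaled by TMM and compared with edgeR 4.0.16 (limma 3.58.1, R 4.3.3) by its quasi-likelihood F test, with p-values adjusted over all features tested (Benjamini-Hochberg). Usage was tested with diffSpliceDGE. Fold changes are on the TMM scale and the CPM printed are relative to the library total, so that a printed CPM ratio lies above the fold change. The median log2 fold change of all genes was 0.00 after TMM and 0.08 without it. Library shares were compared by exact permutation (scipy 1.17.1). The fits were tested on simulated data whose spread was set near that of genes and far below that of transcripts. That check does not cover transcript and usage calls at their own spread.

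Comparison, members and gene lists were chosen with earlier results of these data known. Named are Upf3b, the 12 genes up and 10 down with the largest log2 fold change among called genes of 10 CPM or more without overlap of the groups, 6 up and 4 down likewise from 1 to 10 CPM, up to 4 members of each list with the smallest adjusted p, and the 8 gains, 6 losses and 6 dEJ gains of usage with the smallest adjusted p in genes of 10 CPM or more. Other genes named are members of a list, or were chosen after their values were seen. Lists are described by counts, with no test.

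Replicate numbers did not pair the libraries, since the deviations of same-numbered libraries correlated at -0.021 to 0.036. Libraries of a group differed by more than sampling noise, with a chi-square per gene of 2.68 to 3.44 within a group and 47.9 to 52.6 between groups, so each was counted as a sample. This spread cannot tell separate animals from repeat libraries of one pool. EBSeq, IsoformSwitchAnalyzeR and DEXSeq were not run. Alternatives were DESeq2 1.42.0, limma voom for usage, other scaling, filters and thresholds, unrounded counts, protein-coding transcripts alone, the replicate block and leaving out each library. Leaving out near copies and setting the level limit on the Ctrl mean alone were added after seeing the data. Values of some genes are not reported here.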

Additional observations from a re-analysis of the deposited data

Results flagged for a closer look

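Of 350 groups of 4 libraries examined, 20 had 1 library far from the other three by Dixon's criterion, and chance alone flags about 1 in 20 such groups. Most were small gaps within tight groups. Among genes, Smg5 was at 65.4 CPM in Upf3b-KO library 3 (60.8 to 61.2 in the others), Slc7a5 at 72.1 CPM in Ctrl library 1 (79.6 to 81.2), Phgdh, a serine synthesis enzyme, at 96.4 CPM in Upf3b-KO library 4 (102 each), Gas5 at 47.0 CPM in Ctrl library 3 (48.7 to 49.1) and Srsf3 at 220.2 CPM in Ctrl library 1 (222 each). Mael was at 2.89 CPM in Ctrl library 4 (1.77 to 1.86), Pde10a at 41.2 CPM in Ctrl library 2 (44.2 to 44.6), Lct at 21.6 CPM in Upf3b-KO library 4 (19.6 to 20) and Etv1, a deep layer transcription factor, at 155 CPM in Ctrl library 2 (152 each).

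At the limit of detection, Gm10355 was at 0.0354 CPM in Ctrl library 1, Defb11 at 0.0931 CPM in Ctrl library 4 and Gm16867 at 0.102 CPM in Upf3b-KO library 3, each with 0 in the other libraries of the group, and Gm17081 was at 0.203 CPM in Upf3b-KO library 2 (at most 0.0108 in the others).

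Among transcripts, Septin4-204 made up 0.389% of its gene in Upf3b-KO library 3 (7.10% to 7.75% in the others), Mrpl58-203 0.676% in Ctrl library 3 (0% in the others), Enpp2-202 21.4% in Ctrl library 1 (17.8% to 17.9%) and Ddhd1-206 4.47% in Upf3b-KO library 3 (1.75% to 1.87%). Summed lists stood apart at 4169 CPM for other splicing regulators in Ctrl library 1 (4094 to 4101), 8.16 CPM for olfactory bulb in Ctrl library 1 (10.2 to 10.5) and 13240.5 CPM for nuclear oxidative phosphorylation in Upf3b-KO library 3 (13129 to 13148). Leaving out the library reversed none of these genes or transcripts.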

How the results depend on the processing

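Counts of genes moved mainly with thresholds and the filter on counts, and those of transcripts and usage also with the method. The gene count of 1861 became 9711 at an adjusted p under 0.05 and no limit on size (5099 up, 4612 down), 1047 with a minimum count of 50 and 1216 when tested against a 2-fold change. The 156 genes of 10 CPM or more became 477 at a fold over 1.5, 6344 at an adjusted p under 0.05 (2513 up, 3831 down), 320 at a limit of 5 CPM and 88 at 20 CPM. Chosen after seeing the data, leaving out near copies gave 121 and a limit on the Ctrl mean alone 87 (46 up, 41 down). The 1362 transcripts became 6920 at an adjusted p under 0.05, 471 against 2-fold and 2755 with DESeq2, and the 170 usage calls became 293 at an adjusted p under 0.05, 453 with limma and 111 with a minimum count of 50. Causes were not tested. The replicate numbers did not pair the libraries, and with the replicate block 1837 genes, 158 genes of 10 CPM or more, 460 transcripts (386 up, 74 down) and 98 usage calls (69 gained, 29 lost) were called.

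Without one library in turn the counts ranged from 1837 to 1943 genes, 152 to 160 genes of 10 CPM or more, 927 to 1120 transcripts and 163 to 203 usage calls. The differences in library shares, in percentage points, ranged from 0.310 to 0.323 for dEJ, 0.275 to 0.288 for the NMD class, 0.0769 to 0.0802 for long non-coding RNA, 0.0313 to 0.0339 for processed pseudogenes, 0.0333 to 0.0414 for retained introns, 0.0428 to 0.0501 for undefined frames, -0.442 to -0.391 for protein-coding transcripts and -0.453 to -0.414 for the mitochondrial genome. With 4 against 3 no p under 0.05 is possible in this test. Of the named genes, Srsf9 changed sign, from 0.37 to -0.19 (log2) when just protein-coding transcripts were summed.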
